A study of Mus musculus with 12 samples.

Results

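Interferon-alpha (IFNa), a type I interferon, was set against the DMSO vehicle in mouse embryonic fibroblasts, in 2 arrays titled MEFs-IFNa and 2 titled MEFs-DMSO. These 4 arrays were chosen by their titles and are part of a series of 12 expression arrays in 6 groups of 2. The other groups are interferon-gamma (IFNg), AMN107 with IFNa, AMN107 with IFNg, and AMN107 alone; the compound AMN107, also named nilotinib, inhibits ABL tyrosine kinases. Per the labels, interferon was given for 6 h. The labels give no interferon dose, do not say whether the IFNa cultures also received DMSO, and state no time for the DMSO cultures. No genotype, strain or embryonic age is given, and all groups share the medium, Dulbecco's modified Eagle's medium with heat-inactivated fetal bovine serum. In the titles the 2 arrays of each group are biological replicates, but nothing says that they came from separate embryos or cultures, so the p-values measure only the spread between these arrays, which may be technical.

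Type I interferons bind a receptor made of IFNAR1 and IFNAR2, whose attached kinases TYK2 and JAK1 phosphorylate STAT proteins, among them STAT2. With IRF9 these form the complex ISGF3, which binds interferon-stimulated response elements (ISRE) upstream of interferon-stimulated genes. Type II interferon, IFNg, uses another receptor pair with JAK1 and JAK2 and acts mainly at gamma-activated sites (GAS). In fibroblasts the type I response is known for antiviral effectors, nucleic acid sensors, interferon-inducible GTPases and the parts of class I antigen presentation.

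The 2 IFNa arrays were not alike. The Affymetrix control probe sets for GAPDH, which read the 5' end, the middle and the 3' end of the transcript, gave a 5'/3' signal ratio of 0.0252 on IFNa replicate 2 and 1.09 on IFNa replicate 1, against 1.09 and 1.07 on the DMSO arrays. The actin ratio was 0.212 on IFNa replicate 2 and 0.696 on IFNa replicate 1, against 0.676 and 0.712 on the DMSO arrays. The differences between the 2 IFNa arrays had a standard deviation of 0.401 (log2) over genes, against 0.119 to 0.144 within the 5 other groups. Replicate 2 differed from replicate 1 for 20.9% of the 12188 tested genes upwards and 16% downwards (limma, adjusted p under 0.05). The balance turned with the scaling: 2543 genes were higher and 1956 lower as deposited, against 1925 and 2378 with quantile normalization, 2057 and 2532 with trimmed mean scaling and 2864 and 1579 with median centring. Each IFNa array was therefore also compared with the DMSO mean by itself, with the spread taken from the 5 other groups and each IFNa array assumed to vary as those do. The 2 comparisons share the DMSO arrays. The wider gap between the IFNa arrays does not meet that assumption, so the adjusted p of a single IFNa array may be too small. This holds above all for replicate 2, where 34.4% of all genes passed higher and 24.2% lower, against 6.37% and 1.11% on replicate 1. A gene is said below to have passed on both arrays where limma gave an adjusted p under 0.05 and the same direction for the IFNa mean and for each IFNa array.

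**Figure D1:**
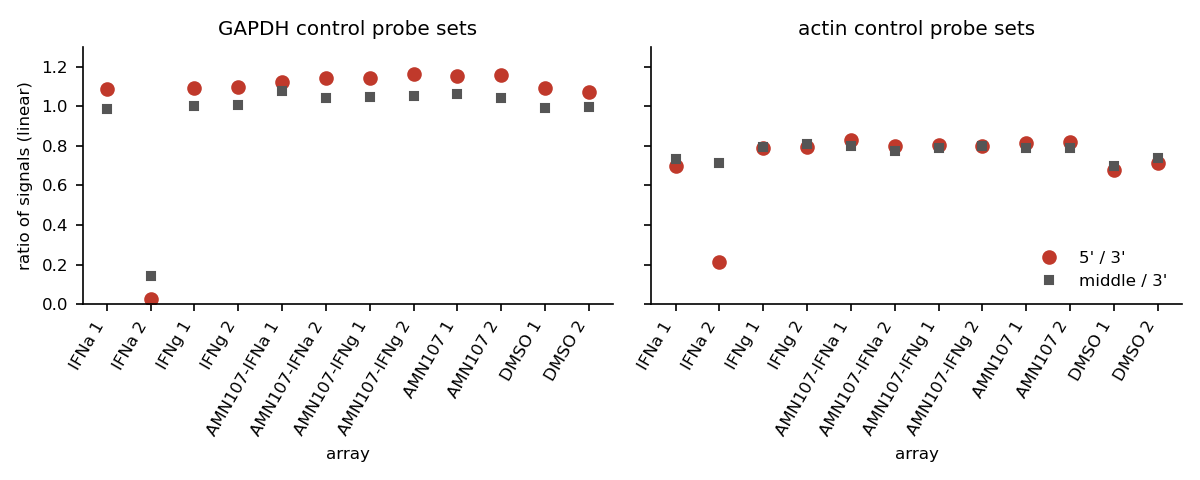
Ratios of the 5' and of the middle to the 3' control probe set signal (linear scale) for GAPDH and actin on each of the 12 arrays, 1 point per array and ratio. IFNa replicate 2 stands alone at 0.0252 for the GAPDH 5'/3' ratio and 0.212 for the actin ratio, while IFNa replicate 1 lies beside the DMSO arrays.

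Of 13 fibroblast markers, 10 were above the array median on all 12 arrays. Of these, vimentin (Vim), S100a4, Col3a1, Col1a2, fibronectin, Prrx1 and Twist1 were well above the array median of about 20.6 to 22.8 units on all arrays, whereas Lum (9.49 to 14.5 units) and Thy1 (8.28 to 12.8 units) lay below it on all 12. Markers of other cell types were mixed. Of 11 leukocyte markers, 4 were above the median on all 12 arrays, Cd14 (114 to 172 units), Csf1r (41.0 to 60.5), Laptm5 (31.3 to 50.5) and Cd3e (25.7 to 38.9), while the pan-leukocyte marker Ptprc (3.94 to 5.2), Itgam (5.04 to 8.16) and Tyrobp (9.05 to 13.8) were below it on all 12. Of 6 endothelial markers Kdr (34.1 to 55.8) and of 7 epithelial markers Epcam (50.7 to 89.0) were above it on all arrays, and Pecam1 (9.01 to 12.01) and Cdh1 (2.55 to 3.43) below. Of 6 muscle and 6 neuronal markers, 3 and 4 were above it on all arrays. The summed signal of 11 leukocyte markers was 377.2 and 373.8 on the IFNa arrays and 407.3 and 418.7 on the DMSO arrays. The summed signal of 5 dendritic cell markers was higher, 1075 and 527.5 on the IFNa arrays and 427.5 and 406.1 on the DMSO arrays, through Bst2, which is itself interferon-stimulated; of its other members Flt3 (35.5 to 57.6 units) and Siglech (21.98 to 31.95) were above the median on all arrays and Itgax (10.9 to 16.4) below it. The part of such cells in the results was not tested. In such bulk samples, fewer cells of a type and less RNA per cell cannot be told apart.

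A compact set of genes was higher on the IFNa arrays (6 h) than on the DMSO arrays, and the largest changes were seen on both arrays. 56 of 12188 genes (0.459%) passed on both arrays and were at least 2-fold higher on each; the matching count of lower genes was 0 (0%). Among the 56, the median fold over the DMSO mean was 3.32 on IFNa replicate 1 and 3.96 on replicate 2. Both IFNa arrays lay above both DMSO arrays for all 56, which their choice nearly fixes, as they did for 37.5% of all tested genes. On replicate 1 alone, the array with intact controls, 67 genes (0.55%) passed at 2-fold and all were higher; on replicate 2 alone, 420 were higher (3.45%) and 146 lower (1.2%). The array-wise plot shows the 56 genes along the diagonal and the replicate 2 changes along the vertical axis.

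**Figure D2:**
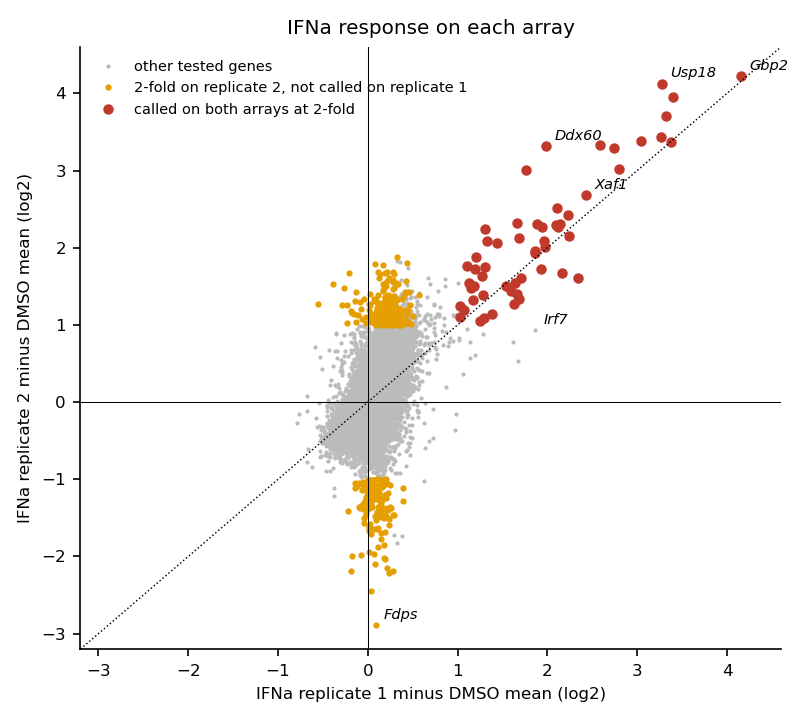
Log2 difference from the DMSO mean on IFNa replicate 1 (x axis) and replicate 2 (y axis) for 12188 genes, with equality as the dotted line. The 56 genes that passed on both arrays at 2-fold (red) lie near the line, and 383 genes that reached 2-fold on replicate 2 without passing on replicate 1 (orange) spread vertically at small replicate 1 values.

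Of the 56, ranked by the smaller rise of the 2 arrays, the first was Gbp2, a guanylate-binding protein that coats and disrupts pathogen vacuoles. Gbp2 gave signals (linear MAS5 units, used throughout) of 555 and 584 on the IFNa arrays, against 22.5 and 23.6 on the DMSO arrays, so that both IFNa arrays lay far above both DMSO arrays. Its log2 difference was 4.19 (SE 0.14, adjusted p = 2.36e-07), or 17.8-fold on replicate 1 and 18.7-fold on replicate 2. Folds are ratios of signal plus 8.66 and lie below the ratio of signals where the signal is low. Mndal, of the interferon-inducible p200 family of DNA-binding proteins, gave 864 and 863 on the IFNa arrays, against 67.8 and 84.6 on the DMSO arrays. The IFNa arrays were almost equal, and the log2 difference was 3.37 (SE 0.15, adjusted p = 6.78e-07). Trim30a, a TRIM family member known as a regulator of innate signalling, gave 267 and 354 on the IFNa arrays, against 19.4 and 18.8 on the DMSO arrays, with a log2 difference of 3.51 (SE 0.15, adjusted p = 5.32e-07). Usp18, the protease that removes ISG15 from proteins and blocks IFNAR2, gave 832 and 1505 on the IFNa arrays, against 68.6 and 88.5 on the DMSO arrays. Here the 2 IFNa arrays differed from each other (adjusted p = 3.08e-04), yet both lay above both DMSO arrays, at 9.71-fold and 17.5-fold. Ifit3, an IFIT family member, gave 241 and 282 on the IFNa arrays, against 30.1 and 24.5 on the DMSO arrays, or 6.96-fold and 8.11-fold.

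The other large rises were spread over several effector groups. Parp12, a mono-ADP-ribosyltransferase with antiviral activity, gave 1024 and 1509 on the IFNa arrays, against 149 and 143 on the DMSO arrays. Oasl2, an oligoadenylate synthetase-like protein, gave 341 and 576 on the IFNa arrays, against 48.6 and 50.4 on the DMSO arrays. Xaf1, an inhibitor of the antiapoptotic protein XIAP, gave 1582 and 1881 on the IFNa arrays, against 287 and 286 on the DMSO arrays. For all of these the groups were clear of each other, and for Xaf1 the 2 DMSO arrays were almost the same. Cmpk2, a mitochondrial nucleotide kinase encoded beside Rsad2, gave 287 and 332 on the IFNa arrays, against 62.1 and 47.9 on the DMSO arrays. Dhx58 (LGP2), a regulator of RNA sensing, gave 241 and 267 on the IFNa arrays, against 42.6 and 55.8 on the DMSO arrays. The IFNa arrays agreed closely in both genes. Herc6, the main ISG15 ligase of the mouse, gave 129 and 150.3 on the IFNa arrays, against 22.9 and 24.4 on the DMSO arrays. Ddx60, a helicase linked to RNA sensing, had the widest gap between the IFNa arrays among the 20 largest rises, with 120.3 and 315 on the IFNa arrays, against 26.1 and 21.8 on the DMSO arrays. Its log2 differences were 1.99 and 3.32, which differed between the IFNa arrays (adjusted p = 8.35e-06). Rnf213, a large ubiquitin ligase that acts on intracellular pathogens, gave 1742 and 1789 on the IFNa arrays, against 412 and 466 on the DMSO arrays. The signals of the 20 genes show no overlap of IFNa and DMSO arrays in any row of the plot.

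**Figure D3:**
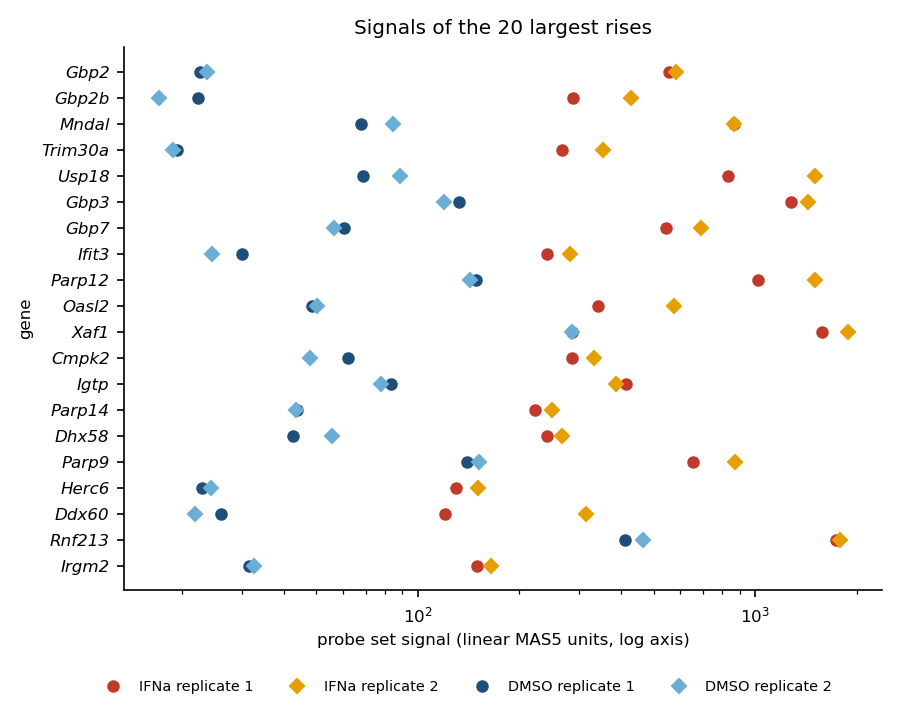
MAS5 signal (linear units on a log axis) of the 20 largest rises, ranked by the smaller rise of the 2 IFNa arrays, 1 point per array, ordered from Gbp2 at the top to Irgm2. In every row the 2 IFNa arrays lie to the right of both DMSO arrays, and Ddx60 and Usp18 show the widest spacing between IFNa arrays.

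Because ISGF3 acts at ISRE sequences, the bases upstream of these genes are shown for those of the 20 largest rises that carry such a match near the start. The sequences are RefSeq promoters of build GRCm38.p6, the 100 bases before the transcription start, and the capitals mark an ISRE-like motif, GAAA, any 2 bases and GAAA, or its reverse complement.
Gbp2, chr3:142620563-142620662, forward strand: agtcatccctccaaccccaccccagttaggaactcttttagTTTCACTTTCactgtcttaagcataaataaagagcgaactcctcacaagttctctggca
Mndal, chr1:173880188-173880287, reverse strand: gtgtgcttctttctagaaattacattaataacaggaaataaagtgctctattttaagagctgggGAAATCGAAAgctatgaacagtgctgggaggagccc
Trim30a, chr7:104465194-104465293, reverse strand: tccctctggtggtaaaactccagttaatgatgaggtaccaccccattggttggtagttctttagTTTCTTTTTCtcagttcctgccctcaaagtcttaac
Gbp3, chr3:142559944-142560043, forward strand: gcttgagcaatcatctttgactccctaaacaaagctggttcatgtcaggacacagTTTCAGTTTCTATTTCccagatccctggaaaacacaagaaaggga
Gbp7, chr3:142530236-142530335, forward strand: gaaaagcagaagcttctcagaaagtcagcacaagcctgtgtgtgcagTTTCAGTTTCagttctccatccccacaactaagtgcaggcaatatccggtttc
Igtp, chr11:58199456-58199555, forward strand: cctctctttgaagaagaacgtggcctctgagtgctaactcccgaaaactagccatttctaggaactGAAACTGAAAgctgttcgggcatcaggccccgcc
Ddx60, chr8:61927987-61928086, forward strand: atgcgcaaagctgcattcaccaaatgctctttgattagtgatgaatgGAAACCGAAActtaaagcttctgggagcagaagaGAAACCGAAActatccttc
Irgm2, chr11:58214877-58214976, forward strand: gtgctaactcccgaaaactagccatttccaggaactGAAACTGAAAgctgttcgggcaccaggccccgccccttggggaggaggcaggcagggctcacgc
In Gbp3 the capitals cover 2 overlapping matches, and in Ddx60 there are 2 separate ones. Igtp and Irgm2, both on chromosome 11, share nearly the same stretch around the match. Within 250 bases upstream and on either strand, the ISRE-like motif was found for 19 of the 45 genes of the 56 that had a RefSeq promoter (42.2%) and for 10 of 16 of the 20 largest rises (62.5%). The share was 2.97% over the 9856 tested genes with a promoter and 2.98% over all 32851 promoters. Among genes that passed on both arrays and were higher by under 2-fold it was 21 of 474 (4.43%), and among the 318 genes at 2-fold on replicate 2 alone it was 2.83%. The GAS-like motif TTCNNNGAA was found for 6 of the 45 genes (13.3%), against 7.05% of tested genes. In Igtp and Irgm2 a GAS-like match begins at base -45 and -75 from the start, just before the ISRE-like match at -34 and -64. A match is a description of letters, not a site shown to be bound.

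Of the signalling chain itself, few transcripts passed. None of the 4 tested receptor and kinase genes of the type I pathway passed on both arrays (0 of 4, against 5.17% of all genes higher and 0.862% lower). Ifnar1 gave 84.2 and 86.5 on the IFNa arrays, against 71.0 and 72.9 on the DMSO arrays, and Ifnar2 gave 166 and 175 on the IFNa arrays, against 138 and 143 on the DMSO arrays. Both differences were small, with adjusted p = 0.0867 and 0.0572. Tyk2 gave 85.3 and 75.3 on the IFNa arrays, against 82.7 and 80.6 on the DMSO arrays, with overlapping groups. Jak1 gave 158 and 467 on the IFNa arrays, against 123 and 127 on the DMSO arrays, with replicate 2 far the highest. Each IFNa array passed by itself (adjusted p = 0.0437 for replicate 1 and 3.08e-10 for replicate 2), and the mean did not (adjusted p = 0.0526). With each array centred on its median these 3 misses passed for the mean, with adjusted p = 0.0281 for Ifnar1, 0.0205 for Ifnar2 and 0.0327 for Jak1. Jak1 is also read by a pair of dimmer probe sets, one with 141 and 138 on the IFNa arrays and 122 and 117 on the DMSO arrays and one with 144 and 157 on the IFNa arrays and 56.4 and 81.2 on the DMSO arrays. Of the type II receptor, Ifngr1 passed on both arrays with a log2 difference of 0.48 (170.0 and 189 with IFNa, 117 and 136 with DMSO). Ifngr2 (146 and 239 with IFNa, 141 and 165 with DMSO) and Jak2 (140.4 and 171 with IFNa, 135 and 139 with DMSO) did not. With quantile normalization Ifngr1 missed (adjusted p = 0.0902).

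Among 10 tested STAT and IRF factors, 2 passed higher on both arrays, Irf9 and Irf7, where 5.17% of all genes did. On replicate 1 alone the same number passed higher, where 6.37% of all genes did. Irf9, the DNA-binding subunit of ISGF3, gave 227 and 363 on the IFNa arrays, against 95.7 and 106 on the DMSO arrays, and both IFNa arrays lay above both DMSO arrays. Its log2 difference was 1.44 (SE 0.17, adjusted p = 0.00102). Irf7, the factor that drives interferon-alpha genes in a positive loop, gave 542 and 279 on the IFNa arrays, against 136 and 149 on the DMSO arrays, higher on replicate 1 than on replicate 2, with a log2 difference of 1.40 (SE 0.24, adjusted p = 0.0108). Stat2 was dim, with 36.9 and 41.6 on the IFNa arrays, against 23.7 and 31.8 on the DMSO arrays (adjusted p = 0.0745). Irf1, known as an early target of IFNg, gave 242 and 303 on the IFNa arrays, against 184 and 218 on the DMSO arrays; it passed for the mean (log2 0.42, adjusted p = 0.0414) and not on replicate 1 alone (adjusted p = 0.0888). Stat3 (171 and 178 with IFNa, 142 and 146 with DMSO), Irf2 (121 and 186 with IFNa, 142 and 142 with DMSO), Irf3 (312 and 284 with IFNa, 317 and 319 with DMSO) and Irf5 (216 and 118 with IFNa, 188 and 205 with DMSO) did not pass. These calls turned on the scaling: Irf1 missed with quantile normalization (adjusted p = 0.187) and trimmed mean scaling (adjusted p = 0.0813), and with median centring Stat2 (adjusted p = 0.0375) and Stat3 (adjusted p = 0.0347) passed for the mean. Irf8 (20.5 and 23.9 with IFNa, 19.0 and 19.2 with DMSO) and Batf2 (25.9 and 29.1 with IFNa, 32.1 and 30.0 with DMSO), which are known from the IFNg response, were near the array median on all 4 arrays.

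Of 10 tested feedback inhibitors of the pathway, Usp18 was the 1 that passed on both arrays. Of all genes 5.17% passed higher and 0.862% lower, so this count says little about the list. Socs1, an inhibitor of the JAK kinases, gave 44.3 and 24.8 on the IFNa arrays, against 33.0 and 43.9 on the DMSO arrays, and the groups overlapped. Socs3 (106 and 139 with IFNa, 98.8 and 99.9 with DMSO) and Socs2 (43.0 and 78.7 with IFNa, 41.6 and 37.4 with DMSO) were higher mainly on replicate 2. Cish was lower on both IFNa arrays (47.8 and 38.6 with IFNa, 62.9 and 59.9 with DMSO) and passed for the mean (log2 -0.44, adjusted p = 0.0308) but not on replicate 1 (adjusted p = 0.0788). The phosphatases Ptpn2 (1080.5 and 988 with IFNa, 1065 and 1037 with DMSO), Ptpn6 (48.2 and 43.3 with IFNa, 55.0 and 55.6 with DMSO) and Ptpn11 (531 and 584 with IFNa, 599 and 584 with DMSO), and the SUMO ligase Pias1 (142 and 166 with IFNa, 119 and 144 with DMSO), did not pass. Dimmer probe sets were higher on both IFNa arrays for Ptpn2 (564 and 684 with IFNa, 486 and 516 with DMSO), Ptpn11 (156 and 184 with IFNa, 87.4 and 119 with DMSO) and Pias1 (66.6 and 83.2 with IFNa, 49.3 and 51.6 with DMSO). Trim24, a nuclear co-repressor, gave 102 and 241 on the IFNa arrays, against 88.9 and 87.8 on the DMSO arrays, with replicate 2 alone apart.

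Of 11 tested sensors of viral nucleic acid and their adaptors 7 passed on both arrays, all higher, and the same number passed on replicate 1 alone (where 6.37% of all genes were higher and 1.11% lower). The median of the list was 1.07 on replicate 1 and 1.19 on replicate 2 (log2), against 0.07 and 0.02 over all genes. Ddx58 (RIG-I), which detects triphosphate ends of viral RNA, gave 325 and 469.9 on the IFNa arrays, against 139 and 134 on the DMSO arrays. Ifih1 (MDA5), which detects long double-stranded RNA, gave 1318 and 1433 on the IFNa arrays, against 626 and 621 on the DMSO arrays. Both rose by a little over 2-fold on replicate 1, 2.29 and 2.1. Zbp1, a sensor of Z-form nucleic acid that can trigger necroptosis, gave 181 and 105 on the IFNa arrays, against 26.3 and 31.2 on the DMSO arrays, and here replicate 1 was the higher of the IFNa arrays. On a dimmer Zbp1 probe set the groups overlapped (54.0 and 39.7 with IFNa, 45.4 and 45.6 with DMSO). Ifi204, a p200 family member, gave 473 and 648 on the IFNa arrays, against 165 and 121 on the DMSO arrays. Tlr3, the endosomal receptor for double-stranded RNA, gave 39.0 and 44.6 on the IFNa arrays, against 18.7 and 13.3 on the DMSO arrays and stayed just under 2-fold on replicate 1. The adaptors Mavs (293 and 368 with IFNa, 253 and 251 with DMSO) and Sting1 (157 and 269 with IFNa, 118 and 145 with DMSO) did not pass on both arrays, nor did Cgas (359 and 329 with IFNa, 335 and 344 with DMSO) or Ifi203 (58.8 and 58.3 with IFNa, 68.8 and 59.2 with DMSO).

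The IFIT and OAS families, which bind foreign RNA, followed. Of 4 tested IFIT genes 3 passed higher on both arrays, and of 7 OAS genes 6 did, against 5.17% of all genes. Ifit1, which recognises RNA lacking cap methylation, gave 767 and 853 on the IFNa arrays, against 328 and 346 on the DMSO arrays, with log2 differences of 1.17 and 1.32. Ifit2 gave 146 and 276 on the IFNa arrays, against 108 and 95.6 on the DMSO arrays; replicate 1 showed the smaller rise, 1.4-fold. Ifit1bl1 did not pass (14.1 and 21.96 with IFNa, 12.1 and 11.5 with DMSO). Oas1a gave 2142 and 1676 on the IFNa arrays, against 636 and 683 on the DMSO arrays. Oas2 gave 284 and 278 on the IFNa arrays, against 92.6 and 91.8 on the DMSO arrays. Oas3 gave 189 and 462 on the IFNa arrays, against 51.4 and 48.5 on the DMSO arrays. All 3 were clear of the DMSO arrays, with replicate 1 higher for Oas1a and replicate 2 far higher for Oas3 (log2 1.76 and 3.01, adjusted p of their difference = 1.25e-07). Oas1c (41.1 and 53.5 with IFNa, 20.9 and 23.6 with DMSO) and Oasl1 (839 and 763 with IFNa, 517 and 536 with DMSO) rose by less, and Oas1b (63.5 and 75.7 with IFNa, 61.4 and 50.8 with DMSO) did not pass on both.

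Of 37 other antiviral effectors, 27 passed on both arrays, all higher, 15 of them at 2-fold, where 5.17% and 0.459% of all genes did; on replicate 1 alone 28 passed. Rsad2 (viperin), which makes a chain-terminating nucleotide, gave 960.4 and 834 on the IFNa arrays, against 421 and 356 on the DMSO arrays on its brightest probe set. The pair of dimmer Rsad2 probe sets moved more, one with 356 and 421 on the IFNa arrays and 90.9 and 87.5 on the DMSO arrays and one with 145 and 166 on the IFNa arrays and 24.3 and 32.7 on the DMSO arrays. Eif2ak2 (PKR), the kinase that halts translation on double-stranded RNA, gave 205 and 403 on the IFNa arrays, against 64.4 and 94.0 on the DMSO arrays. Bst2 (tetherin), which holds budding virions at the cell surface, gave 967 and 435 on the IFNa arrays, against 305 and 289 on the DMSO arrays, a rise of 3.19-fold on replicate 1 and 1.45-fold on replicate 2. Mx1, a dynamin-like GTPase active against influenza virus, gave 28.2 and 38.7 on the IFNa arrays, against 11.4 and 14.5 on the DMSO arrays, under 2-fold on replicate 1 by the fold defined above. Isg20, an RNA exonuclease, gave 1992 and 1513 on the IFNa arrays, against 811 and 817 on the DMSO arrays, and Samhd1, which depletes nucleotides, gave 428 and 475 on the IFNa arrays, against 197 and 229 on the DMSO arrays. Lgals3bp, a secreted glycoprotein, gave 534 and 573 on the IFNa arrays, against 134 and 148 on the DMSO arrays. Helz2, a helicase, gave 387 and 334 on the IFNa arrays, against 102 and 89.0 on the DMSO arrays. In these genes both IFNa arrays lay above both DMSO arrays. Sp100, of PML nuclear bodies, gave 107 and 113 on the IFNa arrays, against 19.2 and 27.7 on the DMSO arrays. Pml, which builds these bodies, gave 214 and 221 on the IFNa arrays, against 133 and 118 on the DMSO arrays, a smaller rise. Rtp4, a transmembrane protein with antiviral activity, gave 1647 and 1392 on the IFNa arrays, against 655 and 602 on the DMSO arrays. Some known effectors did not pass. Ifitm1 (26.8 and 25.4 with IFNa, 35.3 and 31.1 with DMSO), Ifitm2 (1482 and 1215 with IFNa, 1303 and 1386 with DMSO), Zc3hav1 (1324 and 1157 with IFNa, 1197 and 1203 with DMSO), Epsti1 (30.0 and 26.5 with IFNa, 34.9 and 32.9 with DMSO) and Sp110 (23.2 and 24.5 with IFNa, 23.02 and 25.3 with DMSO) did not pass on both arrays. Ifi27 (2089.8 and 647 with IFNa, 2124 and 2019 with DMSO) was low on replicate 2 alone.

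Members of the PARP and TRIM families passed in most cases, where 5.17% of all genes were higher on both arrays and 0.862% lower. All 5 tested PARP and Dtx3l genes passed on both arrays, with list medians of 2.11 and 2.30 (log2). Parp14 gave 223 and 249 on the IFNa arrays, against 43.9 and 43.5 on the DMSO arrays. Parp9 gave 655 and 869 on the IFNa arrays, against 140.1 and 152 on the DMSO arrays, and its partner ubiquitin ligase Dtx3l gave 226 and 206 on the IFNa arrays, against 132 and 103 on the DMSO arrays. Of 8 tested TRIM genes 7 passed. Trim12c gave 235 and 318 on the IFNa arrays, against 62.6 and 52.3 on the DMSO arrays. Trim21, a cytosolic antibody receptor, gave 114 and 131 on the IFNa arrays, against 58.5 and 52.2 on the DMSO arrays, and both were clear of the DMSO arrays. Trim26 (110.3 and 138 with IFNa, 119 and 107 with DMSO) did not pass on both. Of 3 tested ISG15 conjugation genes 2 passed, Herc6, given above, and Ube2l6. Ube2l6, the conjugating enzyme for ISG15, gave 78.6 and 39.9 on the IFNa arrays, against 28.6 and 13.0 on the DMSO arrays, with DMSO arrays that themselves differed, and with trimmed mean scaling it missed (adjusted p = 0.0504). Uba7, the activating enzyme, did not pass on its brightest probe set (86.2 and 92.4 with IFNa, 89.8 and 89.0 with DMSO). Its dimmer probe sets gave 73.7 and 73.5 on the IFNa arrays and 16.1 and 14.3 on the DMSO arrays, and 74.5 and 67.0 on the IFNa arrays and 36.5 and 30.3 on the DMSO arrays, so the reading of Uba7 depended on the probe set. Isg15 itself was not analysed here. The 2 tested Schlafen genes, Slfn2 (29.6 and 25.3 with IFNa, 31.6 and 32.3 with DMSO) and Slfn5 (26.0 and 22.5 with IFNa, 30.2 and 28.4 with DMSO), did not pass.

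Of 5 tested guanylate-binding proteins 4 passed higher on both arrays (5.17% of all genes), and the list medians of 3.26 and 3.43 (log2) were the highest of the 28 lists on both arrays. Gbp2b gave 289 and 428 on the IFNa arrays, against 22.3 and 17.0 on the DMSO arrays. Gbp3 gave 1280.2 and 1437 on the IFNa arrays, against 132 and 119 on the DMSO arrays, and Gbp7 gave 544 and 691 on the IFNa arrays, against 60.3 and 56.6 on the DMSO arrays. In these 3 genes the DMSO arrays were within a narrow range. Gbp6 (17.0 and 21.5 with IFNa, 13.8 and 12.6 with DMSO) did not pass. All 5 tested immunity-related GTPases, which act on vacuoles of intracellular parasites, passed on both arrays. Igtp gave 414 and 386 on the IFNa arrays, against 83.3 and 78.0 on the DMSO arrays. Irgm2 gave 149.7 and 165 on the IFNa arrays, against 31.5 and 32.6 on the DMSO arrays. Irgm1 gave 250.2 and 428 on the IFNa arrays, against 103 and 86.5 on the DMSO arrays, and Ifi47 gave 85.8 and 136 on the IFNa arrays, against 30.3 and 22.5 on the DMSO arrays. The smallest rise was that of Iigp1 (17.6 and 24.7 with IFNa, 12.02 and 9.78 with DMSO). Members of these families are close in sequence, and probe sets for one member may take signal from another.

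Of 13 tested class I antigen presentation genes 11 passed on both arrays, all higher (5.17% of all genes), with list medians of 0.53 and 0.64 (log2), and 1, Tap1, reached 2-fold. Tap1, a subunit of the transporter that brings peptides into the endoplasmic reticulum, gave 195 and 175 on the IFNa arrays, against 59.2 and 58.6 on the DMSO arrays. Tapbp (tapasin), which loads peptides, gave 1399 and 1649 on the IFNa arrays, against 785 and 761 on the DMSO arrays. Erap1, which trims them, gave 130.1 and 164 on the IFNa arrays, against 67.5 and 75.1 on the DMSO arrays. Nlrc5, the transactivator of class I genes, gave 76.7 and 95.5 on the IFNa arrays, against 39.6 and 45.2 on the DMSO arrays. In each of these the groups were apart. H2-K1, a heavy chain, gave 2628 and 3564 on the IFNa arrays, against 1551 and 1691 on the DMSO arrays. B2m, the light chain, gave 5499 and 5735 on the IFNa arrays, against 4642 and 4472 on the DMSO arrays, apart as well although the fold was small (1.21 and 1.26). The general chaperones Calr (2180.2 and 1233 with IFNa, 2124 and 2099.8 with DMSO) and Canx (1642 and 2189 with IFNa, 1843 and 1677 with DMSO) did not pass on both arrays. Of the immunoproteasome, Psmb9 (90.6 and 68.9 with IFNa, 35.4 and 37.8 with DMSO) and Psmb10 (1016 and 683 with IFNa, 455 and 457 with DMSO) passed, with Psmb10 higher on replicate 1. Psme1, a subunit of the proteasome activator, gave 1247 and 877 on the IFNa arrays, against 869.6 and 865 on the DMSO arrays, and it passed on replicate 1 (adjusted p = 1.15e-04) but not on replicate 2 (adjusted p = 0.85). Psmb8 was below the array median, with 15.0 and 11.4 on the IFNa arrays and 13.2 and 15.8 on the DMSO arrays. The subunits they replace, Psmb5 (2056 and 1273 with IFNa, 1938 and 2079 with DMSO), Psmb6 (2031 and 1427 with IFNa, 2035 and 2142 with DMSO) and Psmb7 (994 and 637 with IFNa, 1016 and 1053 with DMSO), did not pass on replicate 1 (log2 0.03, -0.04 and -0.06) and were lower on replicate 2 alone. Class II genes did not pass on both arrays: Cd74 gave 139 and 93.5 on the IFNa arrays, against 126 and 107 on the DMSO arrays and H2-Eb1 gave 27.1 and 27.6 on the IFNa arrays, against 35.1 and 34.5 on the DMSO arrays.

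Of 16 tested chemokines and cytokines 3 passed higher on both arrays, Il15, Cxcl12 and Cxcl10, where 5.17% of all genes did. Il15, which supports natural killer and memory T cells, gave 54.0 and 49.6 on the IFNa arrays, against 26.0 and 26.7 on the DMSO arrays. Cxcl10, a T cell attractant, gave 1422 and 1149.6 on the IFNa arrays, against 967 and 947 on the DMSO arrays, or 1.48-fold and 1.2-fold. Cxcl12 gave 40.9 and 44.5 on the IFNa arrays, against 24.9 and 31.0 on the DMSO arrays. Cxcl11 (73.3 and 74.9 with IFNa, 47.6 and 44.8 with DMSO) passed for the mean (adjusted p = 0.0453) and missed on replicate 1 (adjusted p = 0.0589). Cxcl9 (6.11 and 6.37 with IFNa, 8.88 and 9.93 with DMSO), Ccl2 (1103 and 725 with IFNa, 961 and 886 with DMSO), Ccl5 (3365 and 2858 with IFNa, 3363 and 3145 with DMSO) and Tnf (22.5 and 18.3 with IFNa, 22.7 and 22.5 with DMSO) did not pass on both, and Ifnb1, the gene of interferon-beta, was below the array median with 12.2 and 8.92 on the IFNa arrays and 12.1 and 11.02 on the DMSO arrays. Of 12 NF-kappaB subunits and targets 1 passed, Vcam1, an adhesion molecule (386 and 508 with IFNa, 258 and 267 with DMSO). Of 8 cell death and checkpoint genes 1 passed, Mlkl, the executor of necroptosis (536 and 780.3 with IFNa, 320.1 and 317 with DMSO), while Casp8 (384 and 660.4 with IFNa, 306 and 363 with DMSO) was higher mainly on replicate 2 and Cd274 (PD-L1) (26.3 and 29.8 with IFNa, 30.3 and 23.7 with DMSO) did not pass. Of 3 complement genes 1 passed, C1ra (36.1 and 35.2 with IFNa, 18.1 and 17.8 with DMSO). With 1 gene each and 5.17% of all genes higher, the counts of these 3 lists say little about the lists.

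Lists outside immunity had medians between 0.01 and 0.25 (log2) on replicate 1, against 0.07 over all genes. Of 20 immediate early and SRF target genes 5 passed higher on both arrays: Jun (645 and 584 with IFNa, 479 and 516 with DMSO), Atf3 (217 and 215 with IFNa, 159 and 163 with DMSO), Myc (455 and 1265 with IFNa, 329.7 and 377 with DMSO), Dusp1 (150.5 and 208 with IFNa, 107 and 118 with DMSO) and Ccn2 (380.4 and 449 with IFNa, 257 and 292 with DMSO). Of 17 ER stress and amino acid response genes 5 passed, Herpud1 (425 and 555 with IFNa, 299 and 299 with DMSO) and Dnajb9 (126 and 204 with IFNa, 99.3 and 89.5 with DMSO) the most. These rises were small on replicate 1, between 0.26 for Hspa5 and 0.50 for Herpud1 in the stress list (log2). They depended on the probe set. One dimmer Hspa5 probe set was lower on both IFNa arrays (503 and 509 with IFNa, 666 and 604 with DMSO) and one was higher (1449 and 1953 with IFNa, 1119 and 1034 with DMSO). A dimmer one of Herpud1 showed no rise (155 and 162 with IFNa, 165 and 159 with DMSO). Of 29 cell cycle and replication genes 1 passed, Mcm6 (1176 and 2233 with IFNa, 986 and 1006 with DMSO); of 11 p53 targets 1, Gadd45a (145 and 187 with IFNa, 104 and 87.8 with DMSO); and of 21 cholesterol and fatty acid genes 1, Cyp51 (403 and 466 with IFNa, 321 and 287 with DMSO). These last 3 counts are near the 5.17% of all genes that passed higher. In the extracellular matrix list of 19, Col3a1 (831 and 948 with IFNa, 617 and 567 with DMSO) was higher and Eln (elastin) (27.4 and 28.7 with IFNa, 51.3 and 45.6 with DMSO) lower. Several of these smaller rises missed for the mean under another scaling: Atf3 (adjusted p = 0.161), Mcm6 (0.0875), Cyp51 (0.0816), Col3a1 (0.066) and Dnajb9 (0.0606) with quantile normalization, and Hspa5 (0.121) with trimmed mean scaling. On replicate 2 alone, 17 of the 29 cell cycle genes passed higher and 3 lower, where 34.4% and 24.2% of all genes did; over all genes this balance also turned, to 2844 higher and 3902 lower with quantile normalization and 2991 and 4832 with trimmed mean scaling, against 4189 and 2951 as deposited.

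**Figure D4:**
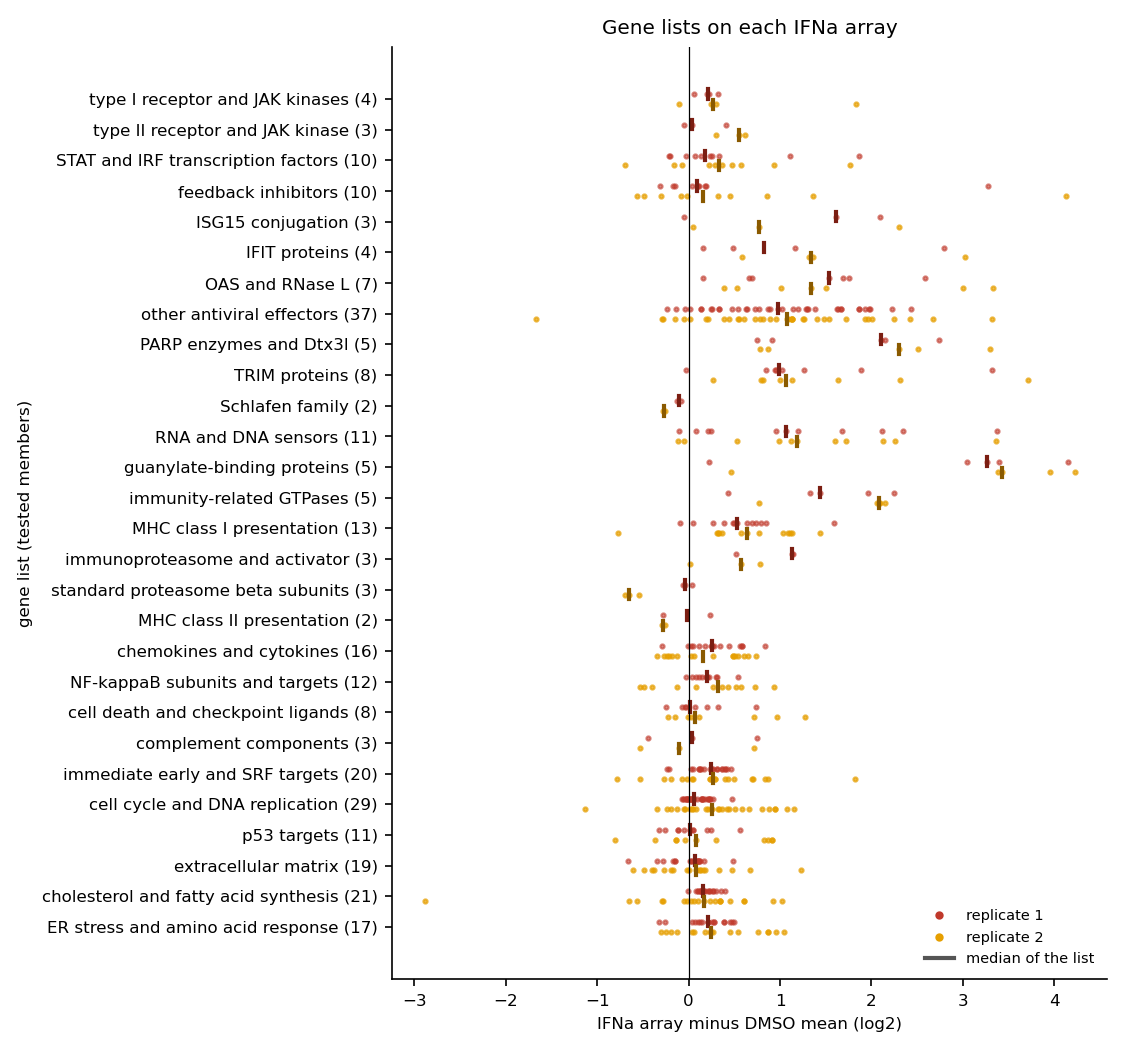
Log2 difference from the DMSO mean for the tested members of 28 gene lists on IFNa replicate 1 (red, upper row of each list) and replicate 2 (orange, lower row), 1 point per gene, with the list median as a bar and the number of tested genes in brackets. Medians lie between 0.98 and 3.43 for the OAS, antiviral effector, PARP, TRIM, sensor, GBP and immunity-related GTPase lists on both arrays, and near 0 for the cell cycle, p53 and matrix lists on replicate 1.

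Of the 56 genes, 11 were in none of the lists. Samd9l, an antiviral translation inhibitor, gave 722 and 911 on the IFNa arrays, against 179.9 and 185 on the DMSO arrays. Nmi, which binds STAT proteins and Ifi35, gave 463 and 329 on the IFNa arrays, against 95.1 and 98.7 on the DMSO arrays. Ifi202b, a p200 family member, gave 2218 and 3519 on the IFNa arrays, against 679.6 and 711 on the DMSO arrays, with replicate 2 well above replicate 1. The galectins Lgals9 (511 and 478 with IFNa, 148 and 155 with DMSO) and Lgals8 (746 and 930.0 with IFNa, 323 and 323 with DMSO), which mark damaged vacuoles, rose alongside, as did Pnpt1, a mitochondrial RNA exonuclease (559 and 766 with IFNa, 209 and 233 with DMSO). Gm20559 (221 and 239 with IFNa, 84.9 and 86.2 with DMSO) and Gm9706 (185 and 161 with IFNa, 67.9 and 78.3 with DMSO) are predicted genes. Il13ra1, a receptor chain for interleukin-13, gave 135 and 221 on the IFNa arrays, against 50.6 and 57.3 on the DMSO arrays. Trps1, a GATA-type repressor, gave 84.9 and 90.0 on the IFNa arrays, against 34.9 and 39.9 on the DMSO arrays, and Dus4l, a tRNA dihydrouridine synthase, gave 57.3 and 79.3 on the IFNa arrays, against 19.6 and 23.4 on the DMSO arrays. The 2 IFNa arrays differed from each other for 28 of the 56 genes (adjusted p under 0.05), with replicate 2 above replicate 1 in 23 and below it in 5. Over all tested genes replicate 2 was above replicate 1 for 20.9% and below it for 16%, so such differences were also common outside the 56. Among the 56 the share above was larger and the share below smaller than over all genes. The cause was not tested.

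Below 2-fold, 574 genes passed higher and 105 lower on both arrays. The falls were small and rested on the setting: without DMSO replicate 1, 98 genes were higher and 2 lower on both arrays, and 0 were lower with array weights, with the IFNa and DMSO arrays alone or without the AMN107 arrays. Taf13, a subunit of the general factor TFIID, gave 249.6 and 233 on the IFNa arrays, against 408 and 402 on the DMSO arrays, a log2 difference of -0.73 (SE 0.10, adjusted p = 0.0031). Sfrp1, a secreted WNT antagonist, gave 57.2 and 47.9 on the IFNa arrays, against 88.2 and 96.7 on the DMSO arrays, and Igfbp5, a binding protein for insulin-like growth factors, gave 115 and 106 on the IFNa arrays, against 179 and 162 on the DMSO arrays. In all 3 the IFNa arrays lay below both DMSO arrays, as they did for 22.1% of all genes, and dimmer Sfrp1 probe sets showed no such gap, the brightest of them with 33.4 and 25.5 on the IFNa arrays and 29.3 and 34.6 on the DMSO arrays. The other named falls were Eln (27.4 and 28.7 with IFNa, 51.3 and 45.6 with DMSO), Wbp2nl (39.8 and 34.0 with IFNa, 63.3 and 59.3 with DMSO) and Gapdhs (38.2 and 32.8 with IFNa, 61.0 and 55.9 with DMSO), between -0.52 and -0.66 on replicate 1 (log2). For each of these 6 genes the arrays of all other groups also lay below both DMSO arrays. Their AMN107 minus DMSO differences ran from -0.47 for Gapdhs to -0.77 for Igfbp5 (log2). The falls were thus not particular to the IFNa arrays, and their cause was not tested. None of these 6 falls passed with array weights, with the IFNa and DMSO arrays alone or without the AMN107 arrays (adjusted p of 0.0621 to 0.31 for the mean), and without DMSO replicate 1 Taf13 alone did (adjusted p = 0.0477). The median DMSO signal of the 105 lower genes was 56.2 units, and 11 of them were below the array median on both IFNa arrays. The count of these smaller changes depended on single arrays and on the scaling. All changes together, 735 genes passed on both arrays, and 100 did without DMSO replicate 1, 175 without DMSO replicate 2, 390 without either AMN107 array and 409 or 407 without an AMN107-IFNg array; with quantile normalization 232 were higher and 207 lower, with scaling to the trimmed mean 230 and 271, and with median centring 2107 and 74.

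The mean of the IFNa arrays by itself gave 1566 higher genes (12.8%) and 570 lower (4.68%), against 466 and 579 with quantile normalization, 594 and 1239 with trimmed mean scaling and 3491 and 308 with median centring. At 2-fold it gave 77 higher (0.632%) and 0 lower (0%) at 2-fold. Leaving out any 1 of the 12 arrays moved the total of 2136 by over 1.5 times, to 100 without DMSO replicate 1 and 7140 without IFNa replicate 1 at the extremes, and to 906 without IFNa replicate 2. At 2-fold the count was 566 without IFNa replicate 1 and 67 without replicate 2.

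On replicate 2 alone, 383 genes were at 2-fold and did not pass on replicate 1, 243 of them higher and 140 lower; no gene did so the other way round. Fdps, an enzyme of the mevalonate pathway, gave 1789.9 and 220.3 on the IFNa arrays, against 1775 and 1601 on the DMSO arrays, a log2 difference of -2.89 on replicate 2 and 0.09 on replicate 1. Rabac1, a Golgi membrane protein, gave 922 and 158 on the IFNa arrays, against 935 and 864 on the DMSO arrays. Fads2, a fatty acid desaturase, gave 253 and 39.0 on the IFNa arrays, against 212 and 214 on the DMSO arrays, and Mbd3, a subunit of the NuRD complex, gave 339.9 and 54.8 on the IFNa arrays, against 257 and 304 on the DMSO arrays. In each, replicate 1 lay near or above the DMSO arrays and replicate 2 far below. On the high side, Zeb2, a repressor of the epithelial programme, gave 24.2 and 113 on the IFNa arrays, against 32.3 and 26.7 on the DMSO arrays. Ncapg, a condensin subunit, gave 82.0 and 293 on the IFNa arrays, against 106 and 94.6 on the DMSO arrays, Mpp5, a polarity scaffold, gave 49.0 and 195 on the IFNa arrays, against 81.2 and 70.8 on the DMSO arrays, and Ammecr1 gave 52.97 and 225 on the IFNa arrays, against 64.4 and 81.1 on the DMSO arrays. On these probe sets replicate 1 of these 4 lay at or below the DMSO arrays, so none of the 8 counts as a change on both arrays. Other probe sets read otherwise. Both IFNa arrays were higher for Zeb2 (26.7 and 76.3 with IFNa, 18.0 and 15.4 with DMSO) and Ncapg (172 and 253 with IFNa, 153 and 145 with DMSO). A further Zeb2 probe set was lower on both (33.5 and 34.5 with IFNa, 44.1 and 38.4 with DMSO). For Fads2 one showed no fall on replicate 2 (104 and 85.2 with IFNa, 90.5 and 78.6 with DMSO). Replicate 2 was also the array with the low 5' signals of the control transcripts. The part of that loss in these 383 genes was not tested.

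The IFNa response was also measured in cells given AMN107, where AMN107-IFNa arrays were set against AMN107 arrays. These 4 arrays are separate from the IFNa and DMSO arrays. 31 genes (0.254%) were higher there and 0 (0%) lower, and 21 of the 31 were among the 56. Of the 56 genes, 54 had a difference above 0, with a median of 0.73 (log2) against -0.02 over all genes, and the range was -0.15 for Dus4l to 1.75 for Ifit3. Besides Dus4l, Trps1 was not above 0 (-0.02), so a rise with IFNa was not seen there for these genes. The count of 21 rested on few arrays: it was 0 without either AMN107-IFNa array, 1 without AMN107 replicate 1, 12 without either AMN107-IFNg array, 14 without either IFNg array, and 47 without either IFNa array. In limma the spread of a gene is shared by all groups. Of the 679 genes that passed on both IFNa arrays under 2-fold, 6 passed in the same direction with AMN107. Their medians there were 0.03 for the 574 higher and 0.03 for the 105 lower genes (log2).

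Signals with AMN107 show how the 2 settings compare. Ifit3 gave 1179 and 1207 on the AMN107-IFNa arrays and 297 and 411 on the AMN107 arrays, against 241 and 282 with IFNa alone and 30.1 and 24.5 with DMSO. Gbp2 gave 550.4 and 600.0 on the AMN107-IFNa arrays and 197 and 289 on the AMN107 arrays, against 555 and 584 with IFNa alone and 22.5 and 23.6 with DMSO. Usp18 gave 1921 and 1898 on the AMN107-IFNa arrays and 986 and 1232 on the AMN107 arrays, against 832 and 1505 with IFNa alone and 68.6 and 88.5 with DMSO. For these genes the AMN107 arrays without interferon already lay above the DMSO arrays. Over the 56 genes the median difference was 1.90 for IFNa minus DMSO and 1.70 for AMN107 minus DMSO (log2), 2 comparisons that share the DMSO arrays. The difference between the responses, AMN107-IFNa minus AMN107 less IFNa minus DMSO, was below 0 with an adjusted p under 0.05 for 25 genes (0.205%), all among the 56, and above 0 for 0 (0%). The 56 were chosen on IFNa minus DMSO, which enters this difference.

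**Figure D5:**
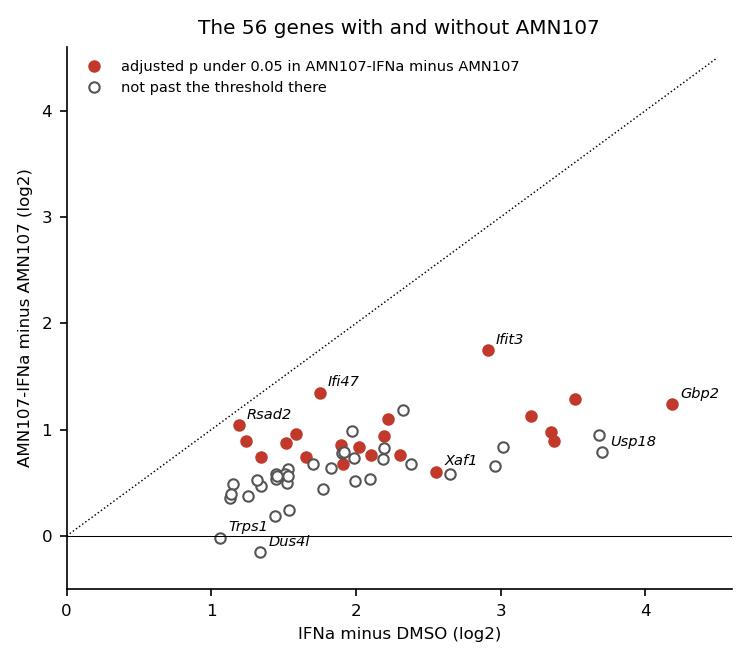
Log2 difference IFNa minus DMSO (x axis) and AMN107-IFNa minus AMN107 (y axis) for the 56 genes, with equality as the dotted line. All points lie below the line, 54 of 56 lie above 0 on the y axis, and the 21 filled points passed with AMN107 (adjusted p under 0.05).

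IFNa was also set against IFNg, and the 56 genes went in both directions. Of the 56, 21 were higher with IFNa, 11 were lower, and 24 did not pass, where 13.3% of all genes were higher and 4.65% lower; the IFNa arrays enter both this comparison and the choice of the 56. Without IFNg replicate 2, 17 of the 56 passed in either direction in place of 32. The actin 5'/3' control ratio also differed, at 0.791 and 0.795 on the IFNg arrays against 0.696 and 0.212 on the IFNa arrays. The part of this in the counts was not tested. Lower with IFNa were Gbp2 (555 and 584 with IFNa, 2224 and 2286 with IFNg), Igtp (414 and 386 with IFNa, 3399 and 3238 with IFNg), Irgm2 (149.7 and 165 with IFNa, 1001 and 887 with IFNg) and Ifi47 (85.8 and 136 with IFNa, 1565 and 1731 with IFNg). Ifi47 showed the widest gap, a log2 difference of -3.82 (SE 0.20, adjusted p = 1.22e-06). Tap1 (195 and 175 with IFNa, 519 and 431 with IFNg) and Zbp1 (181 and 105 with IFNa, 416 and 386 with IFNg) were also lower. Higher with IFNa were Dhx58 (241 and 267 with IFNa, 102 and 80.9 with IFNg), Ifih1 (1318 and 1433 with IFNa, 587 and 604 with IFNg), Oas2 (284 and 278 with IFNa, 148 and 159 with IFNg) and Tdrd7 (371 and 470.2 with IFNa, 213 and 189 with IFNg), a tudor domain protein with antiviral activity. Ifih1 was at 626 and 621 units with DMSO, near its IFNg values. Mndal (864 and 863 with IFNa, 865 and 796 with IFNg) and Xaf1 (1582 and 1881 with IFNa, 1737 and 1737 with IFNg) were close on both, with differences of 0.06 and -0.01 (log2). Outside the 56, Irf1 (242 and 303 with IFNa, 1610.0 and 1478 with IFNg) and Irf8 (20.5 and 23.9 with IFNa, 212 and 216 with IFNg) were far lower with IFNa, with adjusted p = 6.52e-07 and 1.83e-08.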

How the data were processed

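The authors deposited linear MAS5 signals (intensity values) for 45101 probe sets on 12 arrays; per the submitters' processing notes the tool was MAS5, and its version and scaling are not given in the sources used here. After 64 control probe sets were set aside, the platform annotation paired 34945 probe sets with a single gene and 932 with several, and left 9160 unnamed. A RefSeq table of GRCm38.p6 held 34741 of the single symbols (0 changed), and 204 stayed as annotated. No per-sample column was left unmapped.

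Signals were taken as log2(signal + 8.66), the mean over arrays of the 25th percentile. Probe sets above the array median on at least 2 arrays were kept, and the probe set with the highest mean log2 value stood for a gene, giving 12188 tested genes. Other probe sets of a gene did not enter the main comparisons, and some of them moved otherwise. The arrays were not normalized further. In R 4.3.3, limma 3.58.1 (lmFit, eBayes with trend) estimated 6 group means from all 12 arrays, and a second model gave each IFNa array its own mean. Tests were two-sided with Benjamini-Hochberg adjustment over all 12188 genes at 0.05. SE is limma's standard error, with n = 2 arrays a group. The pipeline was tested on simulated data with known changes, and the outcome is not given here. That test is not shown to cover the wider gap between the IFNa arrays or the low 5' signals. No conclusion on the calls on both IFNa arrays is drawn from it. The number of arrays limits the precision. Detection calls were not used. Motifs and figures were made in Python 3.11.15 and matplotlib 3.10.9.

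Replicate numbers were not taken as pairs. Over 15 pairs of groups, deviations of arrays of the same number correlated at -0.143 to 0.312, above 0.1 in 4 and below -0.1 in 3. Named genes were the 20 largest rises and 6 largest falls on both arrays, 4 genes a direction at 2-fold on 1 array only, all tested receptor, kinase, STAT, IRF and feedback genes, and up to 4 of every other list; further list members, probe sets and genes of the 56 were named after their values were seen. Members and lists were chosen with earlier results of these data known. Alternatives were other pseudocounts, filters, scalings, probe set rules, array weights, smaller sets of arrays, a replicate block and the omission of each array.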

Additional observations from a re-analysis of the deposited data

Results flagged for a closer look

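For 15 of the 20 largest rises the IFNa response differed between cells with and without AMN107, by limma's test of the difference itself (AMN107-IFNa minus AMN107, less IFNa minus DMSO, log2). Each difference lay below 0, so that the response, as a log2 difference, was the smaller with AMN107. Of all tested genes, 0.205% passed below 0 and 0% above 0. The differences were -2.95 for Gbp2 (adjusted p = 1.92e-04), -2.73 for Gbp2b (adjusted p = 7.62e-04), -2.48 for Mndal (adjusted p = 7.49e-04), -2.23 for Trim30a (adjusted p = 0.00122), -2.92 for Usp18 (adjusted p = 0.0035). Further differences were -2.36 for Gbp3 (adjusted p = 2.38e-04), -2.09 for Gbp7 (adjusted p = 7.62e-04), -2.18 for Parp12 (adjusted p = 0.00291), -2.30 for Oasl2 (adjusted p = 0.00512), -1.95 for Xaf1 (adjusted p = 1.92e-04). The remaining ones were -1.25 for Igtp (adjusted p = 0.0041), -1.47 for Dhx58 (adjusted p = 0.0165), -1.55 for Parp9 (adjusted p = 0.00373), -1.37 for Herc6 (adjusted p = 0.0198) and -1.19 for Irgm2 (adjusted p = 0.0161). In Gbp2, for example, the response was 1.24 with AMN107 and 4.19 without it. In Igtp it was 0.94 with AMN107 and 2.19 without it. With AMN107 the response was above 0 in each, but it passed (adjusted p under 0.05) in 9 of the 15 and did not in 6, Gbp2b (adjusted p = 0.0639), Usp18 (adjusted p = 0.607), Parp12 (adjusted p = 0.0955), Oasl2 (adjusted p = 0.626), Dhx58 (adjusted p = 0.116) and Herc6 (adjusted p = 0.051). The genes were picked for a large response without AMN107, which enters the difference, so the sign is not independent of that choice. A smaller difference did not mean a lower signal with both agents in the 2 examples. Gbp2 gave 550.4 and 600.0 with AMN107-IFNa, 555 and 584 with IFNa alone and 197 and 289 with AMN107 alone. Igtp gave 934 and 900.0 with AMN107-IFNa, 414 and 386 with IFNa alone and 426 and 524 with AMN107 alone. With DMSO the signals were 22.5 and 23.6 for Gbp2 and 83.3 and 78.0 for Igtp.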

How the results depend on the processing

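Of the 56 genes that passed on both arrays at 2-fold, 34 still did with the IFNa and DMSO arrays alone, 45 with the mean of probe sets, and between 48 and 56 under each other alternative that keeps both IFNa arrays. Of 540 values of the 20 largest rises over 27 alternatives, 539 passed and the lowest log2 difference was 0.87; the exception was Ddx60 with the IFNa and DMSO arrays alone (adjusted p = 0.165). Counts of smaller changes depended on the processing. For IFNa minus DMSO, 2136 genes passed, against 1122 with a filter at the 75th percentile, 3799 with median centring, 1045 with quantile normalization, 84 with array weights, 35 with the IFNa and DMSO arrays alone and 76 without the AMN107 arrays. At 2-fold, 77 passed, against 118 with median centring, 120 with each probe set tested and 34 with the IFNa and DMSO arrays alone. On replicate 1, 911 passed, against 2829 with median centring (2705 higher and 124 lower), 530 with quantile normalization (268 and 262), 601 with trimmed mean scaling (282 and 319) and 348 without the AMN107 arrays. On both arrays, 735 passed, against 2181 with median centring, 439 with quantile normalization, 84 with array weights, 35 with the IFNa and DMSO arrays alone and 76 without the AMN107 arrays; at 2-fold 34 passed, in place of 56, with the IFNa and DMSO arrays alone. Array weights gave 48 genes of the 56 in AMN107-IFNa minus AMN107, in place of 21, and 17 in IFNa minus IFNg, in place of 32, a count that was 15 without the AMN107 arrays. The Uba7 difference reversed to 0.90 with the mean of its probe sets. The cause of these shifts was not tested, beyond the smaller number of genes or arrays that the filter and the smaller sets of arrays leave. The median of all genes was 0.04 (log2), and 0.14 with median centring, -0.05 with quantile normalization and -0.08 with trimmed mean scaling.

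With 1 array left out at a time, counts ranged from 100 to 7140 for IFNa minus DMSO and from 59 to 566 at 2-fold. They ranged from 281 to 1321 on replicate 1 (281 without DMSO replicate 1), from 6139 to 7295 on replicate 2, from 100 to 627 on both arrays, from 55 to 56 on both arrays at 2-fold, and from 4306 to 4694 between the 2 IFNa arrays. They ranged from 0 to 47 for AMN107-IFNa and from 17 to 41 for IFNa minus IFNg. A group left with 1 array was assumed to vary like the others. With the replicate number as a block, 2268 genes passed for IFNa minus DMSO and 720 on both arrays, and 53 of the 56 still passed at 2-fold. Over 150 bases, 40.0% of the 56 genes with a promoter held the ISRE-like motif, against 42.2% over 250. With 2 arrays a group, differences that missed the threshold are not shown to be absent.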
